A study of Homo sapiens with 12 samples.

Results

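The kinesin superfamily was taken as the 39 genes, of 26475 gene symbols in the count table, whose symbol is KIF followed by a number and at most a family letter and digit. Of these, 11 are motors with known work in mitosis (KIF2C, KIF4A, KIF11, KIF14, KIF15, KIF18A, KIF18B, KIF20A, KIF20B, KIF22 and KIF23), and KIF2B and KIF4B were placed beside them as close relatives. A further 13 were counted as transport kinesins (KIF1A, KIF1B, KIF1C, KIF3A, KIF3B, KIF3C, KIF5A, KIF5B, KIF5C, KIF13A, KIF13B, KIF16B and KIF17), and the remaining 13 as other kinesins. RNA was sequenced from 2 ovarian cancer cell lines, PA-1, derived from an ovarian teratocarcinoma, and SK-OV-3, derived from an ovarian adenocarcinoma with high ERBB2. Each line received either DMSO, the vehicle, or 5 µM BAY-850, a small-molecule inhibitor of the chromatin-binding ATPase ATAD2, for 48 h, with 3 libraries in each of the 4 groups. PA-1 cells were grown in DMEM and SK-OV-3 cells in RPMI, both with fetal bovine serum, so that differences of line and of medium cannot be told apart. Each group is a single established line and no vehicle-free culture was analysed here.

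Kinesins are motor proteins that hydrolyse ATP to move along microtubules or to take microtubules apart. Transport kinesins carry vesicles, organelles and ciliary components through the cytoplasm and are used by dividing and non-dividing cells alike. Mitotic kinesins build the bipolar spindle, move and align chromosomes, and assemble the central spindle and midbody at cell division, and many of their genes are transcribed mainly in G2 and M phase. Late cell-cycle promoters commonly carry CCAAT boxes bound by NF-Y and a cell-cycle homology region, CHR, bound by the DREAM and MMB complexes.

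Library totals ran from 34544505 to 51840233 counts. Between 17418 and 18403 symbols had at least 1 count in 11 of the 12 libraries, and 15626 in SK-OV-3 BAY-850 replicate 3, which had the highest total but only 257 symbols with 1 to 4 counts against 1119 to 1972 in the others. That library stood apart before any comparison, and counts of SK-OV-3 calls are therefore given with and without it. The labelled lines carried most of their markers: LIN28A, a pluripotency RNA-binding protein, had 705 to 863 CPM in PA-1 and at most 0.332 CPM in SK-OV-3, while KRT7, an epithelial keratin, had 375 to 476 CPM in SK-OV-3 and at most 0.17 CPM in PA-1. CPM here is counts per 1000000 of the TMM-scaled library total. The pluripotency gene TDGF1 was at or under 0.317 CPM in all 12 libraries, and CDH1, the epithelial cadherin, was at 4.98 to 6.65 CPM in SK-OV-3. Of the other PA-1 line markers, DPPA4 was at 0.977 to 2.42 CPM and L1TD1 at 0.204 to 0.529 CPM in PA-1. The keratins KRT8 and KRT18, listed as SK-OV-3 line markers, were at 504 to 598 and 325 to 364 CPM in PA-1. In SK-OV-3 they were at 396 to 618 and 230 to 281 CPM, so they did not mark that line. Of markers of other cell types, PTPRC, CD3E and DCN did not exceed 0.222 CPM in any library, whereas COL1A1, a fibroblast collagen, was measured at 82.2 to 614 CPM across both lines. CD68, a macrophage lysosomal protein, was at 28.3 to 39.9 CPM in SK-OV-3, and PECAM1, an endothelial adhesion protein, at 22.9 to 26.2 CPM in PA-1.

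Promoter sequences of 33 of the 39 genes were found in RefSeq (GRCh38.p14), as the 250 bases before the annotated start and the first 50 bases from it. In 19 of these 33, bases 6 to 35 after the start stood in a GENCODE transcript of the gene, on its strand. The other starts were not matched in this way, and motif positions depend on the start used. The CHR core TTTGAA was searched for on both strands and was present in 9 of 13 promoters of mitotic kinesins, in 1 of 11 of transport kinesins and in 0 of 9 of the other kinesins, against 15.4% of 27305 promoters of all genes. Its variant TTCGAA was found in 1 mitotic kinesin promoter, that of KIF22, and in that of KIF24, against 1.45% of all promoters. The NF-Y box CCAAT, no match of which overlapped a CHR match in these promoters, was present in 10 of 13, 3 of 11 and 3 of 9 promoters of the respective classes, against 35.7% of all. Both kinds of motif together occurred in 9 of 13 mitotic kinesin promoters (69.2%) and in 6.58% of all promoters. The 9 include KIF4B, which reached at most 5.2 counts in any library, and the 13 also hold KIF2B, at 0 throughout. An E2F-like motif, GCGGGAA, was in 0 of 13 mitotic kinesin promoters and in 6.56% of all. These matches are letters in a window and were not tested as binding sites.

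The stretch from 140 bases before to 30 bases after the start is shown for 6 promoters, each 5′ to 3′ on the strand of its gene, with the CCAAT box (or ATTGG, its complement) and TTTGAA in capitals. The first 4 belong to mitotic kinesins that fell in SK-OV-3, KIF18A to a mitotic kinesin that did not pass the test there, chosen after its values were seen, and KIF5B to the most abundant transport kinesin.
KIF20A (chr5:138178972-138179141, plus strand): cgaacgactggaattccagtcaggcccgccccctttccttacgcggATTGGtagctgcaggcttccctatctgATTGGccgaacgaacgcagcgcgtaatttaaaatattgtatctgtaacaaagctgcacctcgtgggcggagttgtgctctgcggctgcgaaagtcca
KIF4A (chrX:70289964-70290133, plus strand): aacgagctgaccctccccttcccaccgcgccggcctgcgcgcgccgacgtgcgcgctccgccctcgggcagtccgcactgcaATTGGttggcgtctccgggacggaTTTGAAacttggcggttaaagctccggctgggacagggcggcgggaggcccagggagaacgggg
KIF23 (chr15:69414209-69414378, plus strand): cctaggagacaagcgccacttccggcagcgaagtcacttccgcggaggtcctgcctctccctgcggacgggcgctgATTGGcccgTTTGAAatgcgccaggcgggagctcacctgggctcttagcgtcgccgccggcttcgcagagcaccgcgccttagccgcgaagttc
KIF20B (chr10:89701450-89701619, plus strand): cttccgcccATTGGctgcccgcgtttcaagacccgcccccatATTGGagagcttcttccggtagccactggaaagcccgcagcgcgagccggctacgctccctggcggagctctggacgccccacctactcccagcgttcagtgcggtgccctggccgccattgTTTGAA
KIF18A (chr11:28108127-28108296, minus strand): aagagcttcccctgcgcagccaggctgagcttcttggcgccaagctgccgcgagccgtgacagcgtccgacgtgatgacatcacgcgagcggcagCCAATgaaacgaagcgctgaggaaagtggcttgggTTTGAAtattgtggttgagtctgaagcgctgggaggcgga
KIF5B (chr10:32056396-32056565, minus strand): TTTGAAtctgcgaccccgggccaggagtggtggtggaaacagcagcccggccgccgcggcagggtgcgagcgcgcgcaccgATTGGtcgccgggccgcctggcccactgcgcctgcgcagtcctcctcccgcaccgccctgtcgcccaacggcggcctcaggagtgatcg
In KIF4A, KIF23 and KIF18A the CCAAT box lay upstream of TTTGAA, first bases at -58 and -34, at -64 and -55, and at -45 and -10 from the start. The KIF20A window held a pair of CCAAT boxes, at -94 and -67, and neither form of the CHR core. In KIF20B both TTTGAA matches lay after the start, at 25 and 31, and the second of them falls beyond the printed stretch. KIF5B carried TTTGAA at -140, upstream of its CCAAT box at -59, the reverse of the order in the mitotic kinesins shown.

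**Figure D1:**
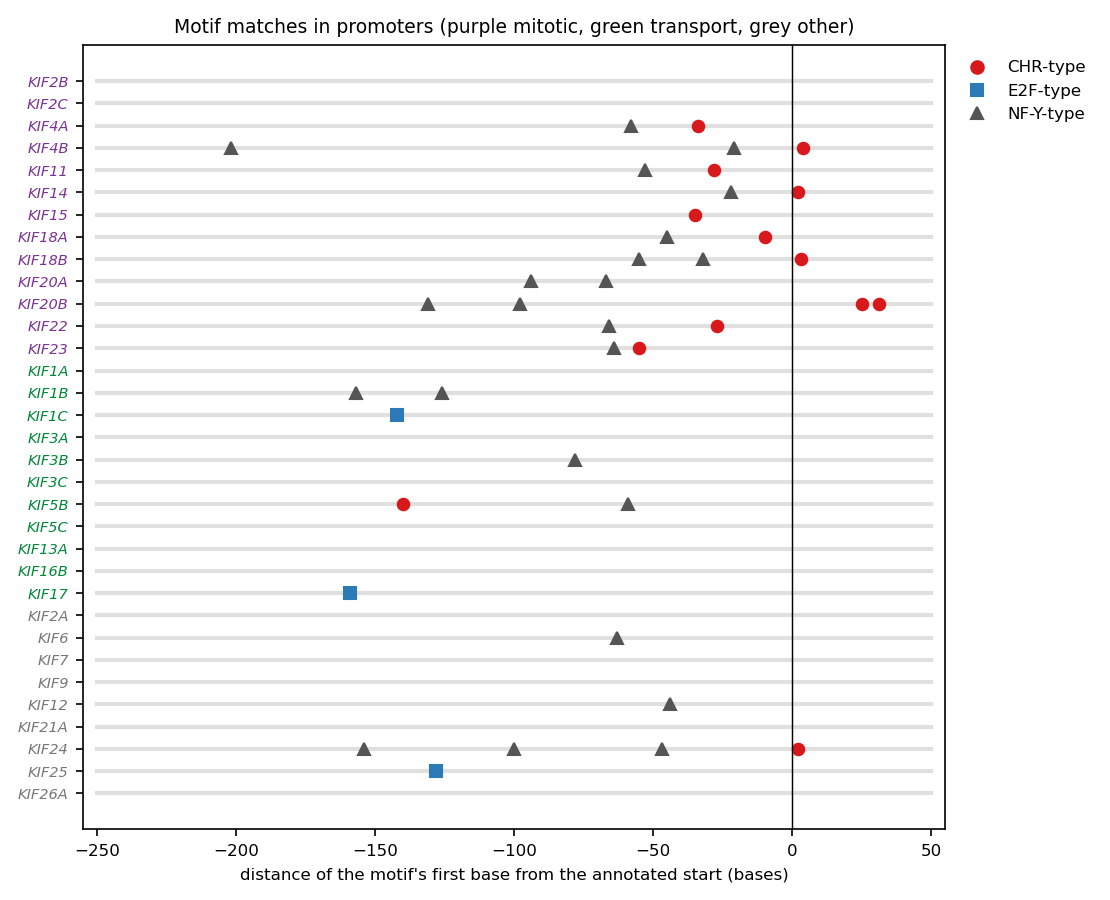
Positions of motif matches in the promoters of 33 kinesin genes, as the distance in bases of the first base of each match from the annotated start (x axis), 1 gene per line, coloured by class. CHR-type matches lie between -55 and 31 in the 10 mitotic kinesins that have one, and the match of KIF5B lies at -140.

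The first comparison asked how the kinesin repertoire of the lines differed before treatment. Of 36 kinesin genes with enough counts to be tested, 14 were lower and 13 higher in SK-OV-3 than in PA-1 with DMSO (edgeR quasi-likelihood test with Benjamini-Hochberg adjustment, adjusted p under 0.05), at a background of 80.3% of all genes called in this comparison (40.2% lower, 40.1% higher). KIF2B was at 0 in all 12 libraries, which allows up to 0.0559 to 0.0866 CPM per library at 3 counts. KIF4B, an intronless copy of KIF4A whose reads cannot be securely separated from it, reached at most 5.2 counts, and KIF19 at most 21. In bulk RNA, fewer cells of a type and less RNA per cell cannot be told apart.

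Conventional kinesin heavy chains, encoded by KIF5A, KIF5B and KIF5C, carry mitochondria and vesicles. KIF5C (chr2:148875250-149026759, plus strand, hg38), best known from neurons, had 185, 197 and 191 CPM in PA-1 with DMSO and 1.06, 0.894 and 0.799 CPM in SK-OV-3 with DMSO. The groups lay far apart, and the log2 difference was -7.69 ± 0.0939 (SE, edgeR adjusted p = 7.22e-15). KIF5A, also enriched in neurons, was likewise lower in SK-OV-3, at 0.402 to 1.08 CPM against 6.14 to 6.75 CPM in PA-1 (log2 difference -3.15 ± 0.305, edgeR adjusted p = 7.26e-07). KIF5B, the widely expressed heavy chain, was higher in SK-OV-3, at 300, 335 and 334 CPM against 168, 181 and 172 CPM (log2 difference 0.90 ± 0.06, edgeR adjusted p = 1.91e-08). Per kilobase of exon KIF5B was the most abundant kinesin transcript in both lines, at 29.6 CPM per kb in PA-1 and 55 CPM per kb in SK-OV-3. KIF5C stood at 20.7 CPM per kb in PA-1 and 0.0994 CPM per kb in SK-OV-3.

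Among kinesin-3 motors, which move vesicles and endosomes, KIF1A was lower in SK-OV-3 (log2 difference -1.99 ± 0.18), as were KIF1B (-0.65 ± 0.0628), KIF1C (-0.36 ± 0.0687) and KIF16B (-0.84 ± 0.0967), and KIF13A (1.49 ± 0.0743) and KIF13B (0.86 ± 0.0778) were higher, each with an edgeR adjusted p of 0.000343 or less. Within kinesin-2, the ciliary motor subunit KIF3B was higher in SK-OV-3 (1.02 ± 0.0705) and the homodimeric KIF17 lower (-1.29 ± 0.194), whereas KIF3A, the partner of KIF3B, differed by -0.03 ± 0.0683 (edgeR adjusted p = 0.694). Outside the transport class KIF12 had 25.2, 18.5 and 20 CPM in SK-OV-3 and 1.56, 1.47 and 1.92 CPM in PA-1 (log2 difference 3.69 ± 0.171, edgeR adjusted p = 5.21e-10). KIF26A, an atypical kinesin without ATPase activity, showed the opposite pattern, at 3.02 to 4.12 CPM in SK-OV-3 and 30.4 to 32.5 CPM in PA-1 (-3.14 ± 0.122, edgeR adjusted p = 9.37e-11).

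Mitotic kinesins were expressed in every library of both lines, with no member of the 11 below 11.8 CPM. Of these, 6 were higher and 3 lower in SK-OV-3, and KIF2C and KIF14 did not pass the test. KIF20A, which brings the chromosomal passenger complex to the central spindle, was 2.15-fold higher in SK-OV-3, while its relative KIF20B, which acts in the last steps of cytokinesis, was at 18.6 to 23.1 CPM there against 65.6 to 69.2 CPM in PA-1, a log2 difference of -1.65 ± 0.0838 (edgeR adjusted p = 1.22e-09). KIF11, which slides antiparallel microtubules to keep the spindle bipolar, and KIF15, which can take over that work, were both lower in SK-OV-3 (log2 difference -0.60 ± 0.0707 and -0.74 ± 0.081). KIF18A and KIF18B, which act on the plus ends of spindle microtubules, were both higher (0.76 ± 0.0858 and 1.41 ± 0.0965).

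**Figure D2:**
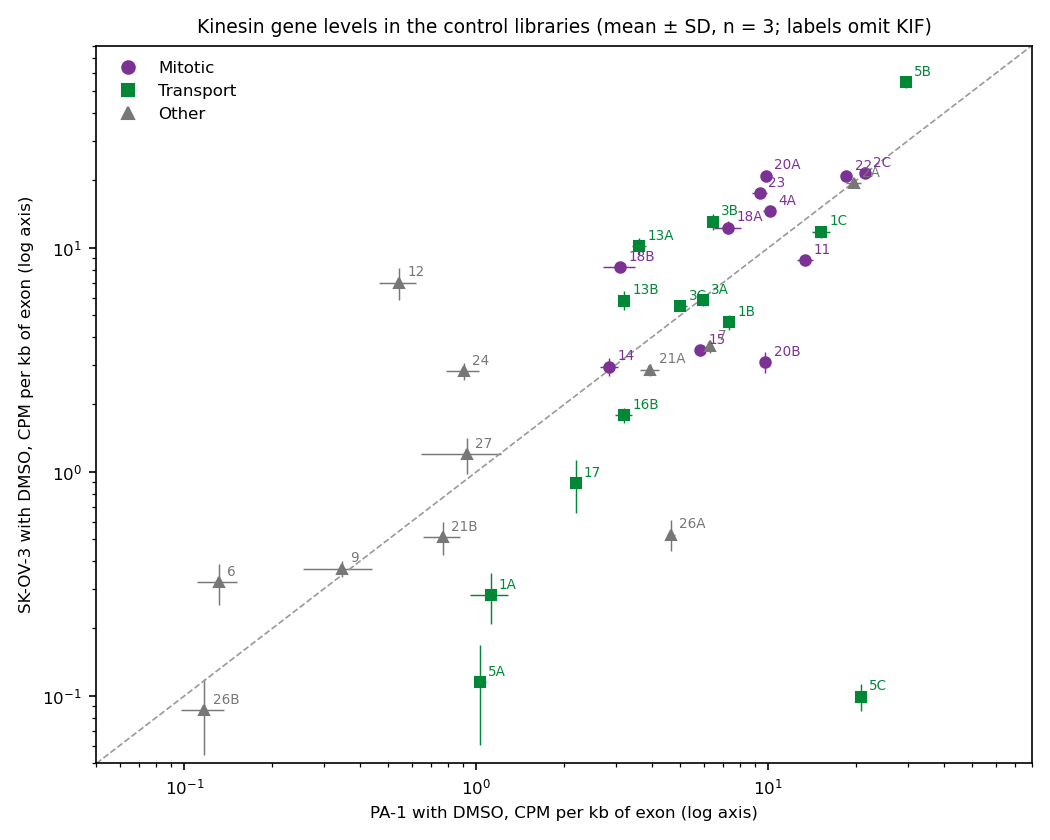
Mean level of each kinesin gene with DMSO in PA-1 (x axis) and SK-OV-3 (y axis), in CPM per kb of exon on log axes, with SD over 3 libraries; the dashed line marks equal levels, and KIF19, KIF25, KIF2B and KIF4B are not drawn. KIF5C, at 20.7 and 0.0994 CPM per kb, is the gene farthest below the line.

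In SK-OV-3 cells most mitotic kinesins were lower with BAY-850. Of the 11 mitotic kinesins tested, 9 fell, against 9.56% of all 15348 genes that fell (edgeR adjusted p under 0.05, and 20.4% of all genes called in either direction). None of the 11 rose by edgeR, DESeq2 or limma-voom, with 0 at an unadjusted edgeR p under 0.05 in that direction, and each of the other tools also called 9 lower. The median log2 fold change was -0.33 for the mitotic kinesins, -0.11 for the 13 transport kinesins and -0.009 for all genes tested. In 10 of the 11 mitotic kinesins every BAY-850 library lay below every DMSO library, a pattern that 19.5% of all genes showed. Without BAY-850 replicate 3, the same 9 mitotic kinesins were called lower, against 11.8% of all 15674 genes in that fit. The count was also 9 without DMSO replicate 1 (8.66% of all genes lower). It was 8 without BAY-850 replicate 1 or 2 (7.05% and 6.9%). Without DMSO replicate 2 it was 7 (5.02%), and without DMSO replicate 3 it was 6 (5.47%). The summed CPM of the 11 genes was 617, 638 and 644 with DMSO and 501, 488 and 504 with BAY-850. The counts depend on which motors the class holds. KIF2A, CENPE and KIFC1, described below, also act at the spindle but stand outside it. With all libraries they were not called in SK-OV-3 (edgeR adjusted p = 0.818, 0.154 and 0.51).

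KIF20A (chr5:138178719-138187715, plus strand, hg38, GENCODE) had the lowest log2 fold change among the mitotic kinesins. Its level was 82.7, 86.5 and 80.7 CPM with DMSO and 49.5, 48.7 and 46.2 CPM with BAY-850 in SK-OV-3. The groups did not overlap, and the fall amounted to 42% (log2 fold change -0.79 ± 0.0609, edgeR adjusted p = 6.13e-06). KIF20A shares 200 bases of exon with BRD8 and CDC23 on the opposite strand, and whether the counting used strand is not given in the sources used here. KIF4A, KIF2C, KIF23 and KIF22 overlap opposite-strand genes in the same way, by 77, 175, 231 and 561 bases of exon. A further pair of central spindle motors fell with it. KIF4A, a chromokinesin that works with PRC1 at the midzone, was at 63.1, 66.7 and 68.7 CPM with DMSO and 47.5, 47.9 and 46.6 CPM with BAY-850 (log2 fold change -0.48 ± 0.0621, edgeR adjusted p = 0.000292). KIF23, the motor subunit of centralspindlin, went from 111, 113 and 120 CPM to 90.7, 87.8 and 93.5 CPM (-0.33 ± 0.06, edgeR adjusted p = 0.0026). For both genes the lowest DMSO library was well above the highest BAY-850 library.

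Motors of cytokinesis with lower expression also fell. KIF20B had 18.6, 23.1 and 22.1 CPM with DMSO and 15.3, 14.2 and 13.1 CPM with BAY-850 (log2 fold change -0.58 ± 0.112, edgeR adjusted p = 0.00404). KIF14, which binds PRC1 and citron kinase at the midbody, was at 20.2, 20.5 and 23.6 CPM with DMSO and 16.6, 16 and 13.4 CPM with BAY-850 (-0.48 ± 0.111, edgeR adjusted p = 0.0107). In both genes the groups did not overlap, although their nearest libraries were closer to each other than in KIF20A. Without DMSO replicate 3, KIF14 no longer passed (edgeR adjusted p = 0.0626).

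Spindle assembly motors fell as well. KIF11 was at 40.3, 44.4 and 44.1 CPM with DMSO and 33.7, 32.1 and 37.2 CPM with BAY-850 (log2 fold change -0.31 ± 0.0851, edgeR adjusted p = 0.0238). KIF15 was at 17.3, 18.6 and 19.3 CPM and then 13.8, 14.9 and 11.8 CPM (-0.45 ± 0.111, edgeR adjusted p = 0.0153). Both sets of libraries were separate, but KIF11 lost its call in 4 of the 6 fits that left out a library, those without DMSO replicate 2 or 3 or BAY-850 replicate 1 or 2, with adjusted p up to 0.11. KIF15 lost it without DMSO replicate 2 or 3, with adjusted p up to 0.0706.

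Among motors at chromosomes, KIF2C, a centromeric microtubule depolymerase, had 78.3, 78.5 and 78.3 CPM with DMSO and 67.1, 61.8 and 57.8 CPM with BAY-850 (log2 fold change -0.33 ± 0.0639, edgeR adjusted p = 0.0041). KIF22, a chromokinesin that pushes chromosome arms outward, had 94, 88 and 88.9 CPM and then 70.2, 73.3 and 76.6 CPM (-0.29 ± 0.0631, edgeR adjusted p = 0.00738). Neither gene's libraries overlapped between groups. KIF18B had 38.4, 38.3 and 38.1 CPM with DMSO and 35.4, 33 and 33.6 CPM with BAY-850, a difference of -0.16 ± 0.07 that did not pass the test (edgeR adjusted p = 0.127). KIF18A was the only mitotic kinesin with a positive estimate, at 53.1, 60.3 and 59.1 CPM with DMSO and 60.6, 57.8 and 74.1 CPM with BAY-850. Its groups overlapped, and 74.1 CPM came from replicate 3 (0.17 ± 0.101, edgeR adjusted p = 0.275).

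The motif content of the promoters was set beside these calls as a description. Of the 10 tested kinesin genes with both a CHR-type and a CCAAT match, 6 fell in SK-OV-3, and of the 21 others with a promoter entry 3 fell, namely KIF20A, KIF2C and KIF15. Over all genes, 94 of 526 with both motifs (17.9%) and 1033 of 10621 without both (9.73%) were called lower. KIF18A and KIF18B carry both motifs and were not called, and neither were KIF24 and KIF5B, which carry both but are not mitotic kinesins. All kinesins that fell were mitotic. Every tested mitotic kinesin without both motifs was among them, namely KIF20A, KIF2C and KIF15. Motif content can therefore not be told apart from class in these kinesin counts.

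**Figure D3:**
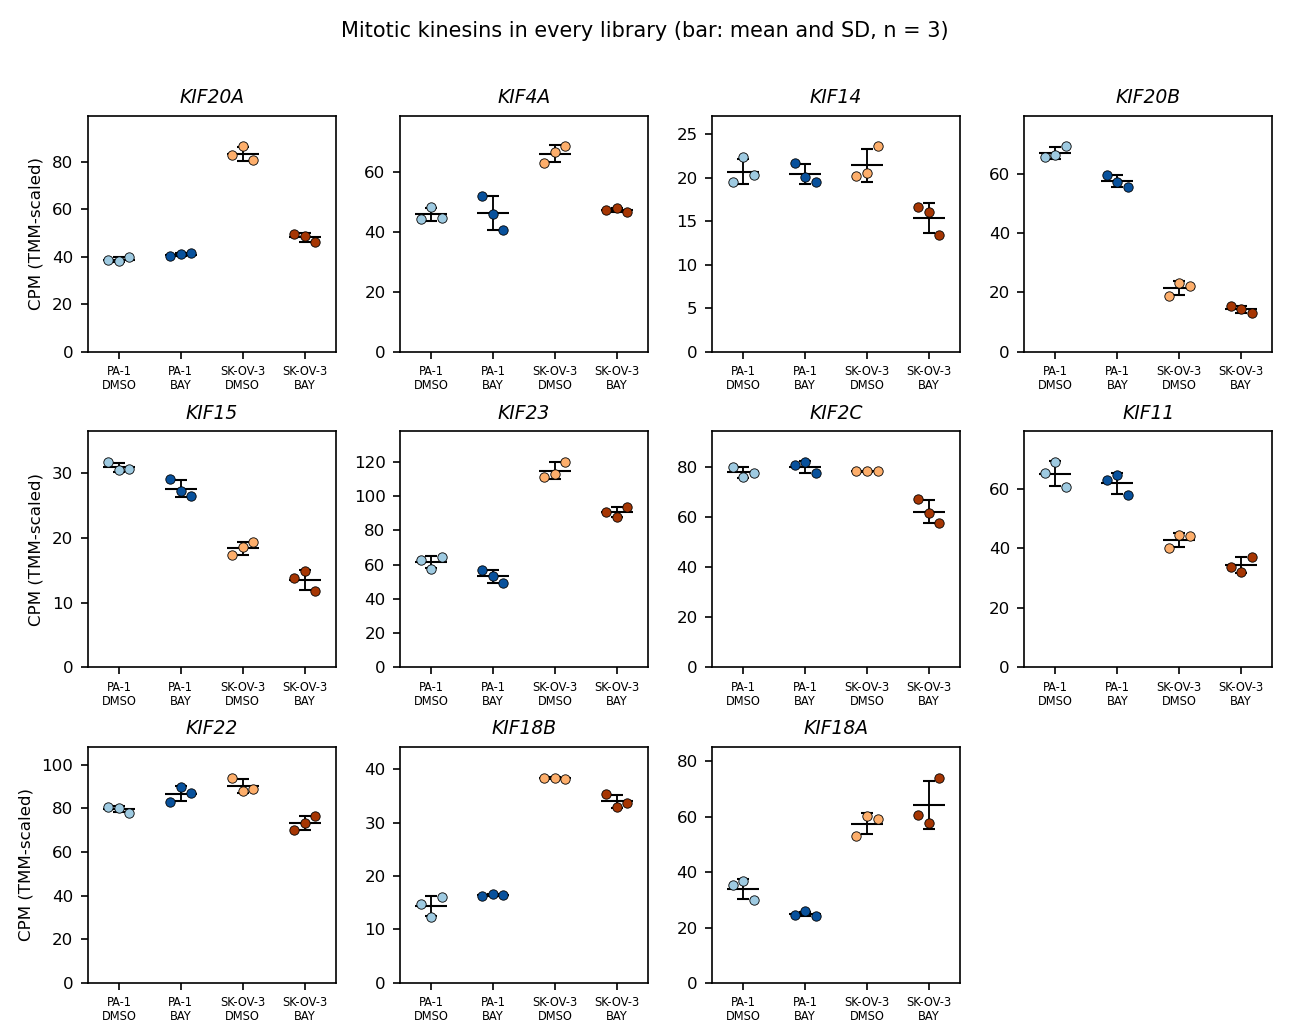
CPM (y axis, from 0) of the 11 mitotic kinesins in each of 12 libraries (points, by group on the x axis), with the group mean and SD as bars, n = 3. In SK-OV-3 all BAY-850 points lie below all DMSO points for every gene except KIF18A, and in PA-1 for KIF15, KIF18A, KIF20B and KIF23.

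In PA-1 cells fewer mitotic kinesins were called than in SK-OV-3. Of the 11 tested, 2 fell, against 2.48% of all 15212 genes that fell (7.13% were called in either direction), and DESeq2 called 3. No mitotic kinesin rose in PA-1 by edgeR, DESeq2 or limma-voom, and 0 reached an unadjusted edgeR p under 0.05 in that direction. The median log2 fold change of the mitotic kinesins was -0.02, against -0.002 for all genes. KIF18A, which was not called in SK-OV-3, had 35.4, 36.7 and 29.9 CPM with DMSO and 24.6, 25.8 and 24.2 CPM with BAY-850. Its groups did not overlap, and the fall amounted to 27% (log2 fold change -0.45 ± 0.0826, edgeR adjusted p = 0.00453). KIF18A (chr11:28020620-28108308, minus strand) shares 61 bases of exon with METTL15 on the opposite strand. KIF20B had 65.6, 66.3 and 69.2 CPM with DMSO and 59.5, 57.3 and 55.5 CPM with BAY-850 (-0.23 ± 0.0596, edgeR adjusted p = 0.0352). The KIF20B call was lost in each of the 6 fits that left out a PA-1 library, whereas KIF18A passed in all 6. With each library's trend on GC content removed, the KIF20B value was -0.05 (edgeR adjusted p = 0.718) and that of KIF18A -0.31 (0.0426). KIF20B has the lowest GC content of the 39 genes, 34.14%, followed by KIF18A, 37.05%.

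The other 9 mitotic kinesins did not pass the test in PA-1. KIF23 had 62.7, 57.6 and 64.2 CPM with DMSO and 56.8, 53.3 and 49.1 CPM with BAY-850 (log2 fold change -0.21 ± 0.0697, edgeR adjusted p = 0.0772), and KIF15 had 31.7, 30.5 and 30.6 CPM and then 29.1, 27.2 and 26.5 CPM (-0.17 ± 0.0704, edgeR adjusted p = 0.162). Those groups did not overlap, a pattern toward lower values that 13.1% of all genes showed. KIF20A went from 38.7, 38 and 39.8 CPM to 40.1, 41.2 and 41.4 CPM, slightly higher in every BAY-850 library (0.07 ± 0.0629, edgeR adjusted p = 0.521). KIF22 (77.9 to 80.6 CPM with DMSO, 83 to 89.8 CPM with BAY-850) and KIF18B (12.4 to 16 CPM and 16.2 to 16.6 CPM) were also separate toward higher values, with log2 estimates of 0.12 ± 0.0576 and 0.19 ± 0.106 that did not pass. Separation toward higher values was seen in 14.4% of all genes. The groups overlapped for KIF2C (75.9 to 80.1 CPM and 77.6 to 82.1 CPM), KIF4A (44.5 to 48.4 CPM and 40.8 to 52.2 CPM), KIF11 (60.7 to 69.1 CPM and 58 to 64.7 CPM) and KIF14 (19.5 to 22.4 CPM and 19.5 to 21.7 CPM). The summed CPM of the 11 genes was 539, 538 and 531 with DMSO and 527, 524 and 496 with BAY-850.

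The response was then compared between lines directly, as the SK-OV-3 log2 fold change minus that of PA-1 in a single fit of the 12 libraries. Of 36 kinesin genes tested, 6 had a lower and 1 a higher response in SK-OV-3, at a background of 14.5% of all genes (7.77% lower, 6.7% higher). Mitotic kinesins made up 4 of the 6, which were KIF20A (-0.87 ± 0.0807, edgeR adjusted p = 5.17e-06), KIF22 (-0.42 ± 0.0771, 0.00191), KIF2C (-0.38 ± 0.0839, 0.00716) and KIF4A (-0.50 ± 0.111, 0.00736). KIF18A was the gene with the opposite difference (0.61 ± 0.138, edgeR adjusted p = 0.00826). KIF20B, KIF14 and KIF18B narrowly missed the threshold, with differences of -0.36 ± 0.118, -0.47 ± 0.151 and -0.36 ± 0.124 and edgeR adjusted p of 0.0513, 0.0514 and 0.0627. For KIF23, which was called lower in SK-OV-3 and not in PA-1, the difference between the lines was -0.13 ± 0.0925 and did not pass (edgeR adjusted p = 0.39), nor did those of KIF11 (-0.25 ± 0.107, 0.135) and KIF15 (-0.29 ± 0.133, 0.167).

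Transport kinesins were called in 1 case per line, at a background of 4.65% of all genes called higher in PA-1 and 10.8% in SK-OV-3. In SK-OV-3, KIF3C, a kinesin-2 subunit, had 36, 35.8 and 33.9 CPM with DMSO and 40.3, 42.8 and 40.4 CPM with BAY-850. All 3 treated libraries were above the controls, as for 19.4% of all genes (log2 fold change 0.23 ± 0.0696, edgeR adjusted p = 0.0382), but the call was lost in 4 of the 6 fits without a library, those without DMSO replicate 2 or 3 or BAY-850 replicate 1 or 2, with adjusted p up to 0.145. In PA-1 the same gene had 30.2, 32.5 and 33.4 CPM and then 40.4, 34.6 and 36.8 CPM (0.22 ± 0.0756, edgeR adjusted p = 0.0989), and the responses of the lines differed by 0.00 ± 0.102.

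KIF1A, which carries synaptic vesicle precursors in neurons, was the transport kinesin called in PA-1. It had 15.5, 20.3 and 20.3 CPM with DMSO and 25.8, 29.2 and 25.2 CPM with BAY-850 in that line, a rise of 42.5% without overlap, as for 14.4% of all genes (log2 fold change 0.51 ± 0.106, edgeR adjusted p = 0.0101). The call was lost in 4 of 17 settings. With the GC trend removed the value was 0.41 (edgeR adjusted p = 0.0542), and without BAY-850 replicate 2 it was 0.44 (0.0675). With library size only it was 0.47 (edgeR adjusted p = 0.057), and with all 12 libraries in one fit 0.51 (0.088). In SK-OV-3 KIF1A had 3.95, 6.1 and 4.1 CPM with DMSO and 3.62, 3.37 and 4.12 CPM with BAY-850, which overlapped (-0.34 ± 0.232, edgeR adjusted p = 0.342), and the lines differed in response by -0.86 ± 0.237 (0.0235).

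The remaining 12 transport kinesins in each line did not pass the test. Their log2 estimates ran from -0.86 to 0.23 in SK-OV-3, where the most negative belonged to KIF5A at 0.224 to 1.08 CPM over the line's libraries, and from -0.11 to 0.22 in PA-1. KIF5B, with the deepest counts, had 300, 335 and 334 CPM with DMSO and 293, 291 and 307 CPM with BAY-850 in SK-OV-3, an estimate of -0.11 ± 0.0584 (edgeR adjusted p = 0.197). KIF5C was listed at 0 in SK-OV-3 BAY-850 replicate 3 and at 1.45 and 0.877 CPM in the other treated libraries of that line, so its SK-OV-3 estimate (-0.26 ± 0.993) rests on that library. The median of the transport class in SK-OV-3 was -0.04 without replicate 3, and in PA-1 it was 0.09. Summed over the class, transport kinesin RNA was 804 to 911 CPM with DMSO and 801 to 841 CPM with BAY-850 in SK-OV-3, ranges that overlapped.

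Of 12 other kinesins tested in SK-OV-3, 1 rose and 0 fell, against 10.8% and 9.56% of all genes. In PA-1, 0 of 11 were called, against 7.13% of all genes. KIF21B, which regulates microtubule growth and is best known from neurons and lymphocytes, was the gene that rose in SK-OV-3. It was at 5.43, 7.39 and 5.85 CPM with DMSO and 13, 11 and 12.2 CPM with BAY-850, with no overlap, as for 19.4% of all genes (1.95-fold, log2 fold change 0.96 ± 0.155, edgeR adjusted p = 0.00125). In PA-1 it had 9.01, 8.15 and 10.8 CPM and then 12.4, 14.8 and 11 CPM (0.45 ± 0.138, edgeR adjusted p = 0.0639), and the difference in response between the lines did not pass (0.50 ± 0.231, 0.165). Its close relative KIF21A was at 26.9, 29.6 and 30.2 CPM with DMSO and 25.5, 26.5 and 25.7 CPM with BAY-850 in SK-OV-3 (-0.15 ± 0.0812, edgeR adjusted p = 0.224).

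In PA-1 KIF26A had 32.5, 31.2 and 30.4 CPM with DMSO and 37.6, 36.1 and 32.7 CPM after BAY-850, and 3.02, 3.5 and 4.12 CPM and then 2.19, 2.16 and 2.57 CPM in SK-OV-3. The treated libraries were all above the controls in the first line and all below in the second, and neither response passed alone (0.18 ± 0.0726, edgeR adjusted p = 0.156, and -0.61 ± 0.253, 0.115). Their difference did (-0.79 ± 0.173, edgeR adjusted p = 0.00649), and without SK-OV-3 BAY-850 replicate 3 the fall in SK-OV-3 was called as well. That fit called 13 kinesin genes in SK-OV-3 in place of 11, with KIF26A and the transport kinesin KIF13B added. Over all genes it called 3902 of 15674, in place of 3130 of 15348. KIF2A, which depolymerises microtubules at spindle poles and in interphase cells, was at 89.9 to 95.7 CPM with DMSO and 90.5 to 97.7 CPM with BAY-850 in SK-OV-3 (0.02 ± 0.0607), unlike its mitotic relative KIF2C. The test of KIF2A against KIF2C was not run.

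**Figure D4:**
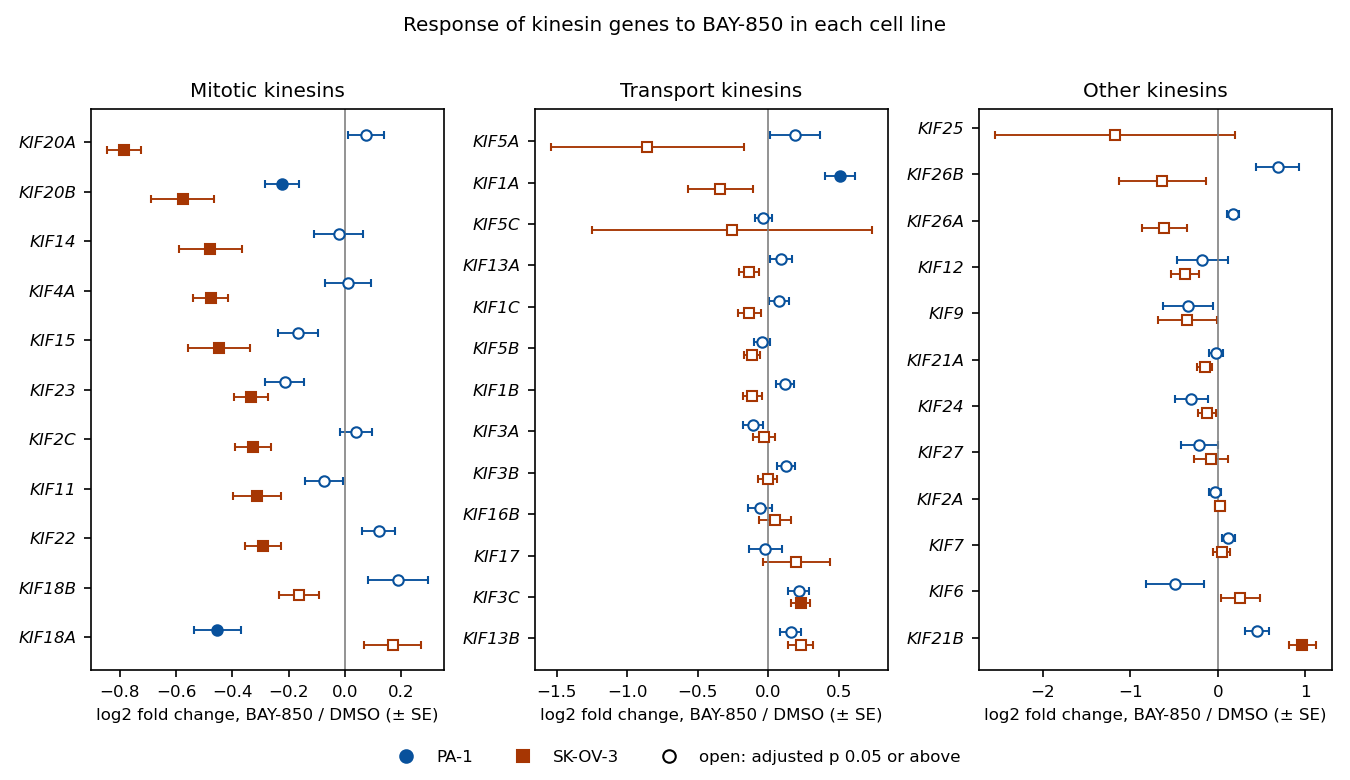
Log2 fold change of BAY-850 over DMSO (x axis, bars show SE) for each tested kinesin in PA-1 (circles) and SK-OV-3 (squares), by class; filled symbols have an edgeR adjusted p under 0.05, and the x axes differ in range. In the mitotic panel 9 SK-OV-3 symbols and 2 PA-1 symbols are filled, and in the other panels 2 and 1.

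**Figure D5:**
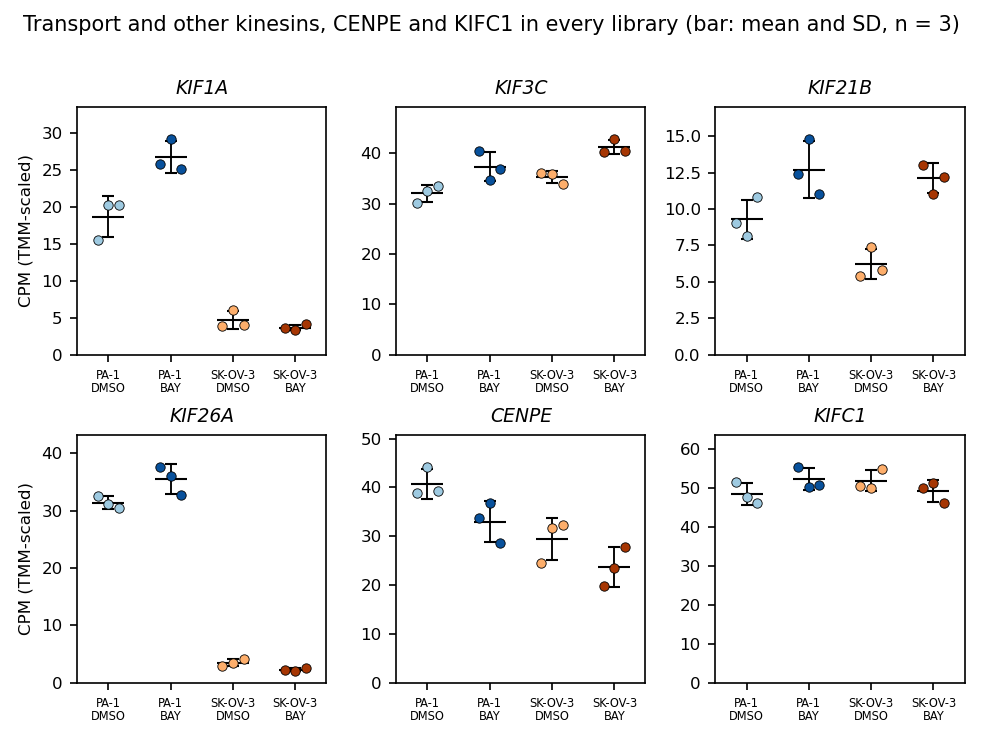
CPM (y axis, from 0) of KIF1A, KIF3C, KIF21B, KIF26A, CENPE and KIFC1 in each of 12 libraries (points, by group on the x axis), with the group mean and SD as bars, n = 3. KIF21B points with BAY-850 in SK-OV-3 lie at 11 to 13 CPM, above the 5.43 to 7.39 CPM with DMSO, and CENPE points overlap between the SK-OV-3 groups.

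Kinesins that carry other names were described separately, since the symbol rule leaves them out. CENPE, the kinetochore kinesin that brings chromosomes to the spindle equator, had in PA-1 cells 38.8, 44.2 and 39.2 CPM with DMSO and 33.7, 36.8 and 28.6 CPM after BAY-850, without overlap (log2 fold change -0.31 ± 0.0885, edgeR adjusted p = 0.0508). In SK-OV-3 it had 24.6, 31.6 and 32.4 CPM and then 19.8, 23.5 and 27.8 CPM, which overlapped (-0.31 ± 0.14, edgeR adjusted p = 0.154). The estimates of the lines differed by -0.01 ± 0.184. KIFC1, a minus-end-directed motor that clusters spindle poles, was at 50.5, 50 and 54.8 CPM with DMSO and 46 to 51.3 CPM with BAY-850 in SK-OV-3 (-0.07 ± 0.0678, edgeR adjusted p = 0.51). Of the 4 genes in this list, KIFC2 (0.49 ± 0.103) and KIFC3 (0.32 ± 0.0712), which also move toward minus ends, rose in SK-OV-3 with edgeR adjusted p of 0.00624 and 0.00852, and in PA-1 edgeR called 0 of the 4, with 1 lower and 1 higher at an unadjusted p under 0.05. Over all genes, edgeR called 10.8% higher and 9.56% lower in SK-OV-3, and 7.13% in either direction in PA-1. DESeq2 called CENPE lower and KIFC2 higher in PA-1, and limma-voom called CENPE lower. Without BAY-850 replicate 3, KIFC2 and KIFC3 kept their SK-OV-3 calls and CENPE was called lower there as well. In that fit 11.8% of all genes were called lower.

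Genes of proteins that work with mitotic kinesins were counted next. Of 18 such genes, 12 fell in SK-OV-3 (median log2 fold change -0.23, against 9.56% of all genes that fell) and 0 rose by edgeR, DESeq2 or limma-voom, with 0 at an unadjusted edgeR p under 0.05 toward higher values. The same 12 were called lower without BAY-850 replicate 3, where 11.8% of all genes were called lower. In PA-1, edgeR called 0 of 18, with 2 lower and 3 higher at an unadjusted p under 0.05, limma-voom called 0 and DESeq2 called 2 higher. MKI67, a chromosome surfactant and proliferation marker, had 211, 244 and 261 CPM with DMSO and 152, 154 and 160 CPM with BAY-850 in SK-OV-3 (-0.61 ± 0.0747, edgeR adjusted p = 0.000189). BIRC5, a subunit of the chromosomal passenger complex, had 147, 131 and 134 CPM and then 101, 110 and 103 CPM (-0.39 ± 0.0606, 0.00108). PRC1, the antiparallel microtubule bundler that recruits KIF4A, went from 193, 198 and 197 CPM to 151, 153 and 163 CPM (-0.32 ± 0.0557, edgeR adjusted p = 0.00197), and GTSE1, which restrains KIF2C, from 45.6, 48 and 49.7 CPM to 37.9, 36.7 and 34.6 CPM (-0.39 ± 0.0694, 0.00254). None of the 4 overlapped between groups, but they were taken by smallest p in this same comparison. Of the 18 genes, 14 were lower without overlap, a pattern that 19.5% of all genes showed.

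Of 18 adaptors and cofactors of transport kinesins, 6 rose and 1 fell in SK-OV-3 (median log2 fold change 0.21, against 10.8% of all genes that rose and 9.56% that fell). Without BAY-850 replicate 3, 7 rose and 2 fell, in a fit that called 2050 of 15674 genes higher and 1852 lower (11.8%). FEZ1, a cargo adaptor of conventional kinesin, was at 6.89, 5.23 and 5.96 CPM with DMSO and 10.4, 11.5 and 11.4 CPM with BAY-850 (0.88 ± 0.147, edgeR adjusted p = 0.00159). MAPK8IP3, the JIP3 scaffold, was at 54.1, 58 and 57 CPM and then 75.7, 76.8 and 69.8 CPM (0.40 ± 0.0618, 0.000972), and PLEKHM2, which links lysosomes to kinesin, at 143, 130 and 137 CPM and then 189, 191 and 151 CPM (0.38 ± 0.0772, 0.00527). KIFAP3, the non-motor subunit of heterotrimeric kinesin-2, was the gene that fell, from 27.3, 31.7 and 32.2 CPM to 23, 23.4 and 20.6 CPM (-0.44 ± 0.0919, edgeR adjusted p = 0.00608). In PA-1 MADD, an adaptor of KIF1A and KIF1B, rose (0.25 ± 0.0703, edgeR adjusted p = 0.0485).

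Markers of the lines moved in the same SK-OV-3 libraries. The list for SK-OV-3 holds KRT8 and KRT18, which were also high in PA-1. AXL, on the same list, was at 287 to 328 CPM in PA-1 and 487 to 547 CPM in SK-OV-3. Of the 8 SK-OV-3 line markers, 4 fell and 1, AXL, rose with BAY-850, against 9.56% and 10.8% of all genes. Without replicate 3 the same 4 fell and 0 rose, in a fit with 11.8% of all genes lower and 2050 of 15674 higher. The summed level of the 8 markers was 4618 to 4896 CPM with DMSO and 3435 to 3911 CPM with BAY-850. EPCAM, an epithelial adhesion protein, fell most (-0.98 ± 0.0895, edgeR adjusted p = 2.04e-05). The summed level of the 8 PA-1 line markers was 6.5 to 8.04 CPM and 7.53 to 10.6 CPM in those groups, with DPPA4 at 0 in both, and that of the 7 markers of non-tumour cells was 195 to 203 CPM and 122 to 152 CPM, most of it COL1A1, with CD3E at 0 in both. Within that sum COL1A1 fell (-0.77 ± 0.0822, edgeR adjusted p = 7.1e-05) and CD68 rose (0.46 ± 0.07, 0.000831). In PA-1, COL1A1 (0.33 ± 0.0775, edgeR adjusted p = 0.0194) and the SK-OV-3 line marker KRT19 (0.42 ± 0.109, 0.0313) rose with BAY-850. Their part in the kinesin results was not tested.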

How the data were processed

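RNA was purified with oligo-dT beads and made into strand-specific dUTP libraries, per the labels. The authors' deposited file holds RSEM expected counts per gene symbol for 12 libraries, and the submitters' processing notes name Bowtie2 2.1.0, RSEM 1.2.15 and hg38. The annotation and strand setting are not given in the sources used here. Between 8.94% and 12.4% of the deposited values were not whole, and all were rounded before testing. Counts were fitted in edgeR 4.0.16 (R 4.3.3) with TMM scaling, its default low-count filter and quasi-likelihood tests, with Benjamini-Hochberg adjustment over all genes tested and a threshold of 0.05. BAY-850 was compared with DMSO in each line, SK-OV-3 with PA-1 under DMSO, and the responses with each other in a fit of all 12 libraries. Fold changes are log2 with their SE, and levels are TMM-scaled CPM, also per kb of exon (GENCODE v29). The filter kept 35 of 39 kinesin genes in PA-1 and 36 in the other fits.

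Alternatives were other scalings and filters, DESeq2 1.42.0, limma-voom (limma 3.58.1), GC and length correction, a replicate block and leaving out each library. GC content was known for 97.1% of the genes tested in PA-1. The fits were tested on simulated data. The class members, gene lists and motifs were chosen with earlier results of these data known. The rule for named genes took the 11 mitotic kinesins in every library, other members with an adjusted p under 0.05 in a BAY-850 comparison, CENPE and KIFC1, and at most 4 such genes per partner list and line by smallest p. Other members and markers were added to show levels, and 1 partner gene that the rule took is not reported here. The study's methods describe biological replicates for its experiments in general, but neither they nor the labels say that these libraries came from separate cultures, so p-values measure the spread between these libraries, part of which may be technical. No pair of replicates was as alike as counting noise alone would make it. The limit at a count of 0 was set at 3 counts and covers counting error only.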

Additional observations from a re-analysis of the deposited data

Results flagged for a closer look

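The response to BAY-850 differed between the lines for 7 kinesin genes, by the interaction term of an edgeR quasi-likelihood fit of all 12 libraries with Benjamini-Hochberg adjustment, at a background of 14.5% of all genes. As SK-OV-3 log2 fold change minus PA-1 log2 fold change, the values were -0.87 for KIF20A (adjusted p = 5.17e-06), -0.42 for KIF22 (0.00191), -0.79 for KIF26A (0.00649), -0.38 for KIF2C (0.00716), -0.50 for KIF4A (0.00736), 0.61 for KIF18A (0.00826) and -0.86 for KIF1A (0.0235). For KIF20A, KIF22, KIF2C and KIF4A the gene fell in SK-OV-3 and was not called in PA-1, and for KIF18A the reverse held. KIF1A was called higher in PA-1 alone, and KIF26A was called in neither line by itself.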

How the results depend on the processing

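In PA-1, where 3 kinesin genes were called, the count was 1 with library size only, with all 12 libraries in one fit, or with the GC trend removed, and 5 without a low-count filter or with DESeq2. It was 1 to 3 with each library left out in turn, the 1 being without BAY-850 replicate 2, and KIF20B was lost in all 6 of those fits. With the replicate number as a block it was 2, losing KIF20B, and with the block and GC correction together it was 1, where KIF18A had an adjusted p of 0.0592. In SK-OV-3, where 11 were called, the count was 7 to 13 with a library left out, 7 being without DMSO replicate 3, and 10 with the replicate block, which lost KIF3C. In the difference between lines, with 7, it was 11 with DESeq2, 6 to 10 with a library left out and 7 with the replicate block. KIF1A lost that call in 8 of 22 settings and KIF2C in 1. Between the lines with DMSO the count was 27 to 30 in every setting, and no block was fitted there because the numbers do not pair libraries across lines. Same-numbered libraries of a line did not deviate together (correlations -0.0425 to 0.0328), and not every library correlated best with its own number.

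The median of mitotic kinesins in SK-OV-3 was -0.39 without a filter and -0.38 to -0.31 with a library left out. That of transport kinesins was -0.07 with at least 10 counts in every library, -0.06 with the length trend removed and -0.14 to -0.04 with a library left out. Signs reversed only for values that were not called. KIF4A in PA-1 was -0.02 with library size only and -0.08 to 0.10 with a library left out, at or below 0 in 3 of those fits. KIF11 was 0.05 and KIF14 0.11 in PA-1 with GC correction, with or without the block, and KIF14 was 0.01 and 0.04 in 2 fits with a library left out. KIF3C in the difference between lines was -0.05 to 0.06 in such fits, negative in 6. KIF20A, KIF4A, KIF23, KIF2C, KIF22, KIF20B and KIF21B kept their SK-OV-3 calls in all 17 settings. Over all genes in PA-1, 378 were lower and 707 higher, against 231 and 235 with library size only, 132 and 431 with the GC trend removed and 90 and 333 with the block as well. The total of 1085 became 683 with all 12 libraries, 1674 with DESeq2, 1626 without a filter and 340 to 1228 with a library left out. In SK-OV-3 the 3130 genes became 1781 to 3902 with a library left out. In the difference between lines, 1307 were lower and 1128 higher, and 773 and 1062 with library size only. The causes were not tested. At 3 libraries per group, a kinesin that missed the threshold is not shown to be unchanged.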
